A study of Mus musculus with 9 samples.

Results

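A set of 10 genes grouped as receptors and identity genes of hepatic stellate cells, 10 of the 34745 genes in the count table, were followed by gene symbol through 3 groups of C57BL/6 mouse livers with 3 libraries each. They are the receptor genes Pdgfra, Pdgfrb and Ngfr, the structural gene Des, the globin gene Cygb, the signalling regulator Rgs5, the genes of the secreted proteins Reln and Ecm1, and the transcription factor genes Hand2 and Lhx2. All 10 had enough counts to be tested, among 13701 genes tested in all. The first group drank water with thioacetamide (TAA) at 400 mg/L for 16 weeks and received sulodexide each day from week 13 on, for 4 weeks. The next group had the same TAA exposure with vehicle in place of sulodexide, and the last was labelled control. TAA is turned into toxic products by hepatocytes and is used to scar the rodent liver, and sulodexide is a mixture of heparin-like and dermatan sulfate glycosaminoglycans. The labels do not say whether control mice were given vehicle, whether each library came from a separate mouse, or the age and sex of the mice. The p-values therefore measure the spread between these libraries, which may in part be technical. The study's comparisons ask how the fibrotic liver differs from the control liver, and how sulodexide given during the last weeks changes it.

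Stellate cells lie between hepatocytes and the sinusoidal endothelium, store vitamin A in the healthy liver, and turn into matrix-producing myofibroblasts when the liver is injured. Platelet-derived growth factor (PDGF), acting on the receptor tyrosine kinases PDGFRα and PDGFRβ, is a main mitogen of these cells. Desmin, reelin, cytoglobin, the p75 neurotrophin receptor and the factors HAND2 and LHX2 are used to mark them or to describe their state. Rgs5 is best known from pericytes and Ecm1 is made mainly by hepatocytes in mouse liver, so that neither is specific to stellate cells, and Ecm1 moved the opposite way to the receptor genes with vehicle relative to control and with sulodexide relative to vehicle. The libraries were made from whole liver, so that a higher level can come from more cells of a type or from more RNA per cell, and these cannot be told apart.

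The libraries held 13803697 to 16655951 counts, and TMM factors, which scale libraries so that most genes do not differ, ran from 1.01 to 1.04 with TAA and sulodexide, from 1.08 to 1.19 with TAA and vehicle, and from 0.821 to 0.919 in control. Levels below are CPM, a gene's counts relative to the library total scaled with these factors, and a gene is said to have risen or fallen when its adjusted p in the edgeR quasi-likelihood test over all 13701 genes was below 0.05. The summed level of 8 hepatocyte markers was 95011 to 117755 CPM with TAA and sulodexide, 87120 to 104719 CPM with TAA and vehicle and 102105 to 125163 CPM in control. Most of each sum was Alb, at a mean of 75678 of 96576 CPM with vehicle, and Alb passed in none of the comparisons. Of the 8 markers, 4 fell with vehicle and 3 with sulodexide relative to control, and 0 changed with sulodexide relative to vehicle. Apoa1 averaged 3939 CPM with sulodexide, 3347 CPM with vehicle and 10642 CPM in control. The 10 genes had between 19 counts in a library, for Lhx2, and 2191, for Ecm1.

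With TAA and vehicle, 5 of the 10 genes rose and 1 fell relative to control. Cygb, Pdgfra, Pdgfrb, Ngfr and Des rose by 1.10 to 1.96 on the log2 scale, and Ecm1 fell. In the same comparison 43.4% of all tested genes changed, 23.1% upward and 20.4% downward, and the median log2 fold change was 0.85 over the 10 genes and 0.01 over all tested genes. With TAA and sulodexide, 4 of the 10 genes fell and 1 rose relative to TAA with vehicle. Cygb, Pdgfrb, Pdgfra and Ngfr fell and Ecm1 rose, where 4.8% of all tested genes changed, 3.41% downward and 1.39% upward. The median log2 fold change there was -0.60 over the 10 genes and 0.02 over all tested genes. Relative to control, TAA with sulodexide left 1 gene higher, Reln, where 22.6% of all tested genes changed and 11.2% rose. The groups of a gene were also set side by side by whether any libraries overlapped in CPM. With vehicle, 6 of the 10 genes lay wholly above control and 1 wholly below, where 56.8% of all tested genes did not overlap, 29.4% being higher and 27.4% lower. With sulodexide, 1 lay wholly above vehicle and 5 wholly below, against 24.2% of all tested genes, 11.1% higher and 13.1% lower. Relative to control 4 lay wholly above with sulodexide, Pdgfra, Pdgfrb, Des and Ngfr, against 42% of all tested genes, 21.4% higher and 20.6% lower. The 3 comparisons share their groups, so that TAA with vehicle is the upper arm of the first and the lower arm of the next, and their values are given side by side rather than set against each other.

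**Figure D1:**
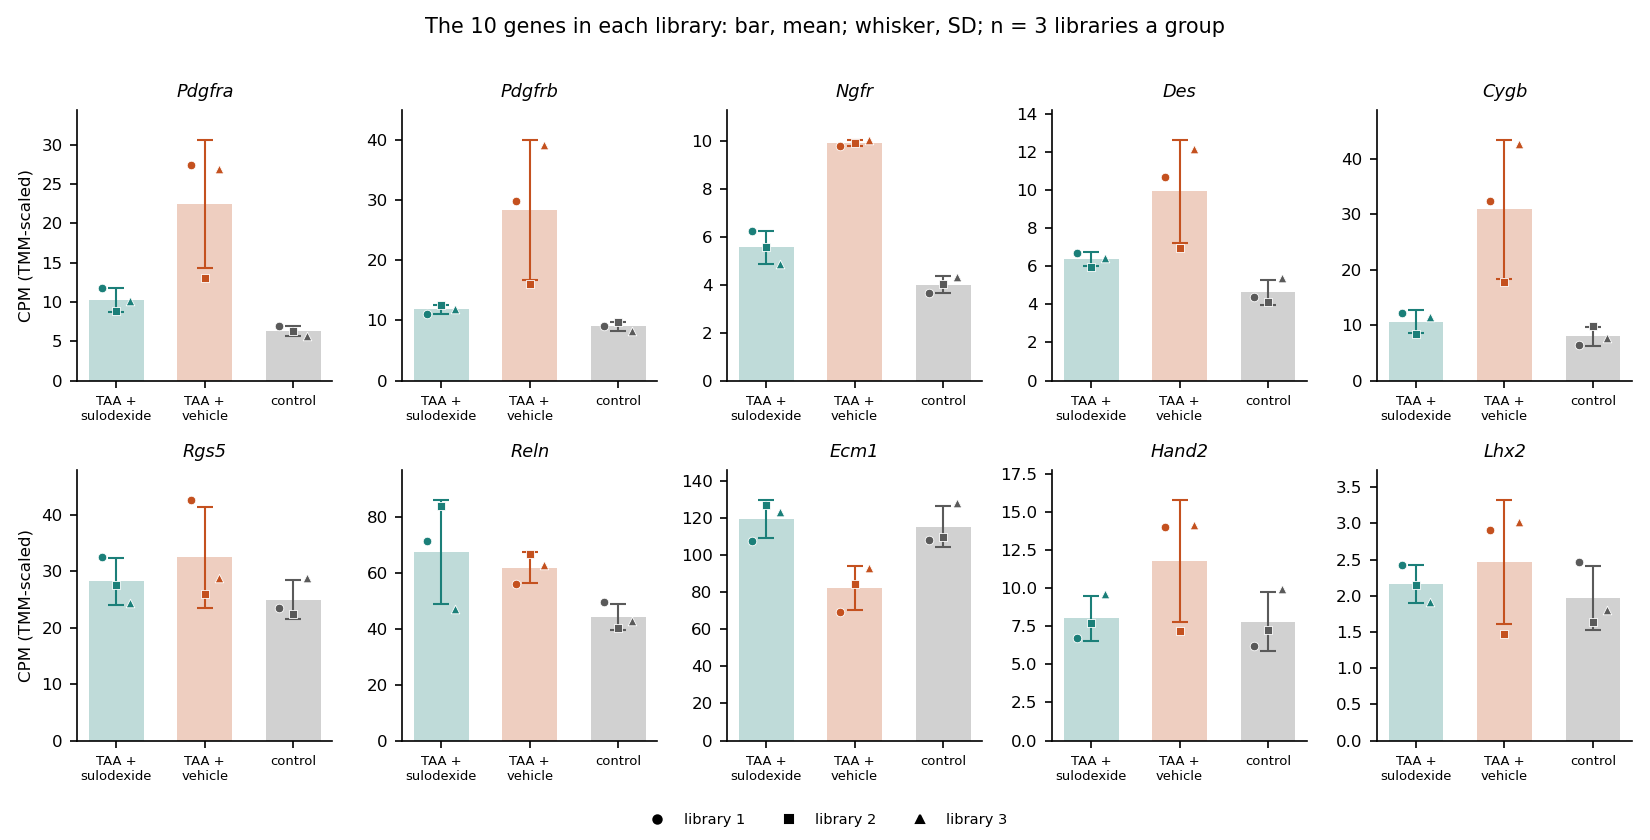
CPM of each of the 10 genes in the 3 libraries of each group, with bars for the group mean and whiskers for the SD (n = 3 libraries). Cygb, Pdgfra, Pdgfrb, Ngfr and Des stand highest in TAA with vehicle, where library 2 lies below libraries 1 and 3 for all of these but Ngfr, and Ecm1 stands lowest there.

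The genes lie, on GRCm38 as the count table gives them, at chr5:75152292-75198215 (Pdgfra), chr1:75360329-75368579 (Des), chr5:21884454-22344702 (Reln), chr11:116645595-116654313 (Cygb), chr11:95568818-95587735 (Ngfr), chr1:169655501-169695813 (Rgs5), chr3:95734147-95739569 (Ecm1), chr8:57320983-57324517 (Hand2) and chr2:38339281-38369733 (Lhx2). Reln, Cygb, Ngfr and Ecm1 are on the minus strand and the others on the plus strand.

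The gene starts of the members whose changes recur below are shown first, as 250 bases before to 50 after the start site, from RefSeq on GRCm38.p6. Capitals mark E-boxes (CANNTG, the same on both strands), the letters that basic helix-loop-helix factors such as HAND2 bind. They were chosen because Pdgfra, Ngfr and Des rose with TAA and vehicle and Ecm1 fell. Pdgfra lies at chr5:75152001-75152300 on the plus strand, Ngfr at chr11:95587649-95587948 on the minus strand, Des at chr1:75360042-75360341 on the plus strand and Ecm1 at chr3:95739520-95739819 on the minus strand.
Pdgfra: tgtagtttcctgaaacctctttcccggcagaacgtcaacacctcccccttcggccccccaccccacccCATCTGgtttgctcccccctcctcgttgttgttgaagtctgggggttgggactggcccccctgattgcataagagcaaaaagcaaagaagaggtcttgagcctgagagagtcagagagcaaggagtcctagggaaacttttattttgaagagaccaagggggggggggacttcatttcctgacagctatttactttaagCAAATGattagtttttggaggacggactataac
Ngfr: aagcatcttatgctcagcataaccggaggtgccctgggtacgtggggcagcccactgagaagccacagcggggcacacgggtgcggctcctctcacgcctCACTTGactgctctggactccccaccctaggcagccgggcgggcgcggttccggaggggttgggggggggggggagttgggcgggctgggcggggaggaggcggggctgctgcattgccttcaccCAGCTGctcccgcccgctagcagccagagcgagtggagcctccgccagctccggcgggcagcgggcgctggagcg
Des: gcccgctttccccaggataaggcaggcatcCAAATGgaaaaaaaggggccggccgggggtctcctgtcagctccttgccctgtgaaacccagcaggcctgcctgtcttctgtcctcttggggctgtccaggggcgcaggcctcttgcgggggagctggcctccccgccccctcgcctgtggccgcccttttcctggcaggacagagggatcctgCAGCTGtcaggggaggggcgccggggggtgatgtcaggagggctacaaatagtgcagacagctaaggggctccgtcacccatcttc
Ecm1: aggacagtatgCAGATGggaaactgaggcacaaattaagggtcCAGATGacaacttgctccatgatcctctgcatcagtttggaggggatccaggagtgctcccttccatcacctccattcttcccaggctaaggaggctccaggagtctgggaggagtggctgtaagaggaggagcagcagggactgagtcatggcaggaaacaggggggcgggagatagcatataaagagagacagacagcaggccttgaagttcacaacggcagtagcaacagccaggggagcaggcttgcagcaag
Each of the 4 windows holds 2 E-boxes, and 72.3% of 32851 RefSeq promoter windows of 300 bases hold at least 1. The Ecm1 pair and 1 of the Pdgfra pair read CATCTG on either strand, which 17.2% of all windows hold. The Ngfr window holds 4 GC boxes (GGGCGG on either strand), the Des window 2, the Ecm1 window 1 and the Pdgfra window 0, against 35.7% of all windows with at least 1. The Ecm1 window alone of the 4 holds a TATA box (TATAAA) and an AP-1 site (TGANTCA), and 13.6% and 7.81% of all windows hold these. The GC content is 71.7% for Ngfr, 65.3% for Des, 54.7% for Ecm1 and 51% for Pdgfra, with a median of 52.7% over all windows. A match of letters is a description of the sequence and does not show that a factor binds there. RefSeq windows were found for 8 of the 10 genes.

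Pdgfra encodes the receptor for PDGF-A, PDGF-C and PDGF-B chains and marks fibroblasts and stellate cells. Pdgfra had 11.8, 8.88 and 10.1 CPM in libraries 1, 2 and 3 of TAA with sulodexide, 27.5, 13.1 and 26.9 CPM in TAA with vehicle, and 6.98, 6.28 and 5.71 CPM in control. The 3 groups did not overlap, and library 2 of TAA with vehicle lay nearest to the sulodexide libraries. Pdgfra was 3.55-fold higher in TAA with vehicle than in control (log2 fold change 1.83, SE 0.26, edgeR adjusted p = 0.000334). In TAA with sulodexide it fell relative to TAA with vehicle, with a log2 fold change of -1.13 (95% interval -1.69 to -0.58, edgeR adjusted p = 0.0294). Against control its log2 fold change with sulodexide was 0.70 (95% interval 0.11 to 1.28, edgeR adjusted p = 0.0822), which did not pass.

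Pdgfrb, on chromosome 18, encodes the receptor for PDGF-B and PDGF-D and is the receptor through which PDGF drives stellate cell division. Pdgfrb had 11.1, 12.6 and 11.9 CPM in TAA with sulodexide, 29.9, 16.2 and 39.3 CPM in TAA with vehicle, and 9.16, 9.73 and 8.25 CPM in control. The vehicle libraries lay above all others and were widely spread, with library 2 lowest, while the sulodexide libraries lay close together. Pdgfrb was 3.15-fold higher in TAA with vehicle than in control (log2 fold change 1.65, SE 0.27, edgeR adjusted p = 0.000719). With sulodexide it fell by 1.26 on the log2 scale relative to vehicle (SE 0.26, edgeR adjusted p = 0.0226). The sulodexide libraries all lay above the control libraries, with a log2 fold change of 0.39 that did not pass (95% interval -0.20 to 0.98, edgeR adjusted p = 0.32).

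The balance of the receptor pair was compared per length, as the ratio of the deposited FPKM values of Pdgfra and Pdgfrb in each library. The ratio was 0.549, 0.362 and 0.434 in TAA with sulodexide, 0.472, 0.416 and 0.352 in TAA with vehicle, and 0.391, 0.332 and 0.356 in control. All 3 pairs of groups overlapped, and the FPKM of Pdgfra stood below that of Pdgfrb in all 9 libraries. This order rests on the lengths implied by the deposited counts and FPKM, 14968 bases for Pdgfra and 7687 for Pdgfrb. In CPM, which uses no length, Pdgfra stood above Pdgfrb in sulodexide library 1, at 11.8 against 11.1 CPM, and below it in every other library. Exact two-sided permutation tests of the mean log2 ratio gave p = 0.3 for vehicle against control, p = 0.6 for sulodexide against vehicle and p = 0.2 for sulodexide against control, and adjusted over the 3 comparisons 0.45, 0.6 and 0.45. With 3 libraries against 3, such an exact permutation test cannot go below p = 0.1.

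Ngfr encodes p75, the low-affinity neurotrophin receptor, which stellate cells and portal fibroblasts carry. Ngfr had 6.22, 5.57 and 4.87 CPM in TAA with sulodexide, 9.78, 9.89 and 10.04 CPM in TAA with vehicle, and 3.63, 4.05 and 4.33 CPM in control. The 3 groups did not overlap, and the vehicle libraries lay closer together than for any other of the 10 genes, with a coefficient of variation of 1.31%, against 40.9% for Pdgfrb in the same libraries. Ngfr was 2.47-fold higher in TAA with vehicle than in control (log2 fold change 1.31, SE 0.18, edgeR adjusted p = 0.000207). It fell in TAA with sulodexide relative to TAA with vehicle, by 0.83 on the log2 scale (SE 0.17, edgeR adjusted p = 0.0212). Against control its log2 fold change with sulodexide was 0.47 (95% interval 0.08 to 0.87, edgeR adjusted p = 0.0788).

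Des encodes desmin, the muscle-type intermediate filament by which stellate cells are stained in rodents. Des had 6.69, 5.98 and 6.45 CPM in TAA with sulodexide, 10.7, 6.94 and 12.2 CPM in TAA with vehicle, and 4.36, 4.13 and 5.39 CPM in control. No 2 groups overlapped, but library 2 of TAA with vehicle lay only just above the highest sulodexide library. Des rose with TAA and vehicle relative to control by 1.10 on the log2 scale (SE 0.23, edgeR adjusted p = 0.00269). Its log2 fold change with sulodexide relative to vehicle was -0.64 (95% interval -1.12 to -0.16) and did not pass at an edgeR adjusted p of 0.126, whereas without library 2 of TAA with vehicle it was -0.84 with an adjusted p of 0.0285.

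Cygb encodes cytoglobin, a haem protein that in the liver is found in stellate cells. Cygb had 12.1, 8.35 and 11.5 CPM in TAA with sulodexide, 32.3, 17.7 and 42.7 CPM in TAA with vehicle, and 6.47, 9.81 and 7.59 CPM in control. The sulodexide and control libraries overlapped, and the vehicle libraries lay above all 6 of them. The rise with TAA and vehicle was the largest of the 10, 3.89-fold over control (log2 fold change 1.96, SE 0.31, edgeR adjusted p = 0.000666). The fall with sulodexide relative to vehicle was also the largest of the 10, with a log2 fold change of -1.54 (95% interval -2.19 to -0.88, edgeR adjusted p = 0.0194). Cygb shares exon positions with Prcd on the opposite strand, and the strand setting of the counting is not given in the sources used here, but Prcd had at most 6 counts in any library, against at least 89 for Cygb.

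Rgs5 encodes a regulator of G protein signalling that is best known from pericytes, the mural cells of small vessels. Rgs5 had 32.6, 27.5 and 24.4 CPM in TAA with sulodexide, 42.6, 26.0 and 28.7 CPM in TAA with vehicle, and 23.6, 22.4 and 28.8 CPM in control. Library 1 of TAA with vehicle stood apart and the other libraries of all groups lay between 22.4 and 32.6 CPM. The log2 fold change was 0.38 for vehicle against control (95% interval -0.05 to 0.81, edgeR adjusted p = 0.136) and -0.20 for sulodexide against vehicle (edgeR adjusted p = 0.604), and neither passed. Without library 1 of TAA with vehicle, sulodexide against vehicle gave 0.04.

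Reln encodes reelin, a secreted glycoprotein known from brain development that stellate cells make in the liver. Reln had 71.3, 83.8 and 47.1 CPM in TAA with sulodexide, 55.9, 66.8 and 62.6 CPM in TAA with vehicle, and 49.5, 40.4 and 42.9 CPM in control. The vehicle libraries lay above the control libraries, while library 3 of TAA with sulodexide lay among the control libraries. Reln rose in TAA with sulodexide relative to control (log2 fold change 0.61, SE 0.19, edgeR adjusted p = 0.0387). Its log2 fold change was 0.48 for vehicle against control (95% interval 0.07 to 0.89, edgeR adjusted p = 0.0578) and 0.13 for sulodexide against vehicle (95% interval -0.28 to 0.53, edgeR adjusted p = 0.757). The value for vehicle against control passed without sulodexide library 2 (adjusted p = 0.0394) or 3 (0.0104). The rise with sulodexide did not pass without library 1 (adjusted p = 0.0997) or library 2 (0.146) of that group, without library 3 of TAA with vehicle (0.0547), or without control library 1 (0.0614), 2 (0.136) or 3 (0.119).

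Ecm1 encodes extracellular matrix protein 1, a secreted protein that in mouse liver is made mainly by hepatocytes and that keeps latent TGF-beta from being activated. Ecm1 had 107.7, 127.1 and 123.3 CPM in TAA with sulodexide, 69.5, 84.4 and 92.8 CPM in TAA with vehicle, and 107.8, 109.9 and 127.8 CPM in control. The vehicle libraries lay below all 6 others, which overlapped each other. Ecm1 fell with TAA and vehicle relative to control, by 0.49 on the log2 scale (SE 0.14, edgeR adjusted p = 0.0135). It rose with sulodexide relative to vehicle, with a log2 fold change of 0.54 (95% interval 0.24 to 0.84, edgeR adjusted p = 0.0471). Sulodexide and control differed by 0.05 (95% interval -0.24 to 0.35, edgeR adjusted p = 0.816). When libraries were scaled by their total counts, the fall with vehicle was -0.09 with an adjusted p of 0.552 and the rise with sulodexide was 0.40 with an adjusted p of 0.0763. The fall also missed the threshold without library 1 of TAA with vehicle (adjusted p = 0.0561), and the rise with sulodexide missed it without each of the 9 libraries in turn, at adjusted p values from 0.0528 to 0.171.

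Hand2 encodes a basic helix-loop-helix factor of mesenchymal and cardiac development, and Lhx2 a LIM-homeodomain factor whose loss in mice leads to activated stellate cells and liver fibrosis. Hand2 had 6.69, 7.72 and 9.61 CPM in TAA with sulodexide, 14.03, 7.19 and 14.16 CPM in TAA with vehicle, and 6.18, 7.23 and 9.96 CPM in control. Lhx2 had 2.43, 2.15 and 1.91 CPM in TAA with sulodexide, 2.90, 1.47 and 3.02 CPM in TAA with vehicle, and 2.47, 1.64 and 1.80 CPM in control. For both genes libraries 1 and 3 of TAA with vehicle were the highest of the 9 and library 2 lay within or below the control range. With all libraries, none of the 3 comparisons passed for either gene. The log2 fold change of Hand2 was 0.60 for vehicle against control (95% interval -0.01 to 1.21, edgeR adjusted p = 0.102) and -0.56 for sulodexide against vehicle (95% interval -1.16 to 0.04, edgeR adjusted p = 0.28). Without library 2 of TAA with vehicle, Hand2 passed as higher with vehicle than in control (log2 fold change 0.85, edgeR adjusted p = 0.0135). That of Lhx2 was 0.32 (95% interval -0.41 to 1.05) and -0.19 (95% interval -0.90 to 0.52), at 19 to 54 counts a library. Hand2 shares exon positions with Hand2os1 on the opposite strand, which had 9 to 34 counts, against 84 to 261 for Hand2.

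**Figure D2:**
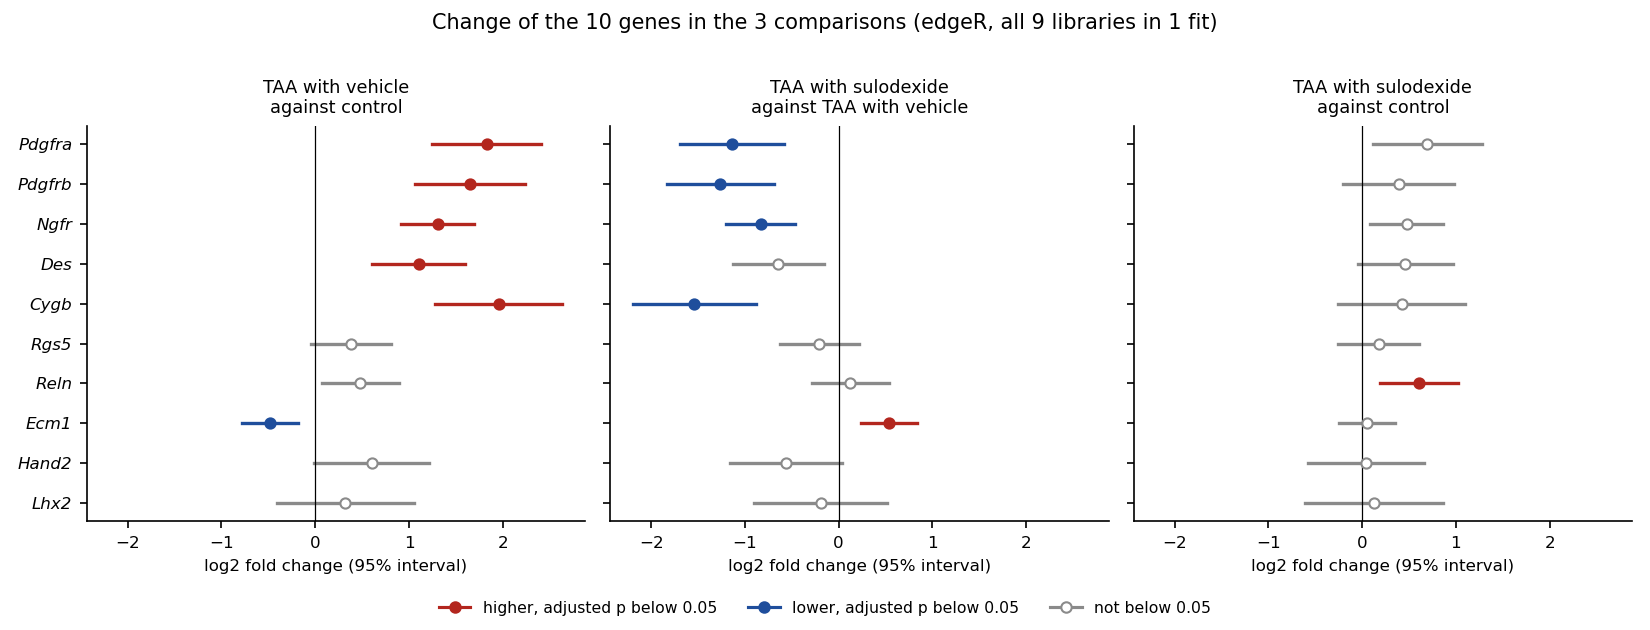
Log2 fold change of each of the 10 genes with its 95% interval in the 3 comparisons, where filled points passed an adjusted p of 0.05 and colours give the direction. The receptor genes and Cygb lie right of 0 in TAA with vehicle against control and left of 0 in TAA with sulodexide against TAA with vehicle, and Ecm1 lies on the other side in each.

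Library 2 of TAA with vehicle was the lowest of its group for 7 of the 10 genes, while it was the lowest of its group for 35.2% of all tested genes. For Cygb it stood 1.17 above the control mean on the log2 CPM scale, where libraries 1 and 3 stood at 2.04 and 2.44, and for Pdgfrb it stood at 0.84 against 1.73 and 2.12. For Ngfr the 3 vehicle libraries stood at 1.29, 1.31 and 1.33. The same library had the lowest summed level of its group for the myofibroblast markers, with 298.4 CPM against 444.7 and 522.9 CPM, for the cholangiocyte markers, with 203.6 CPM against 496.8 and 465.1 CPM, and for the portal fibroblast markers, with 80.7 CPM against 130 and 153.6 CPM. The part of these markers in the spread of the 10 genes was not tested.

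**Figure D3:**
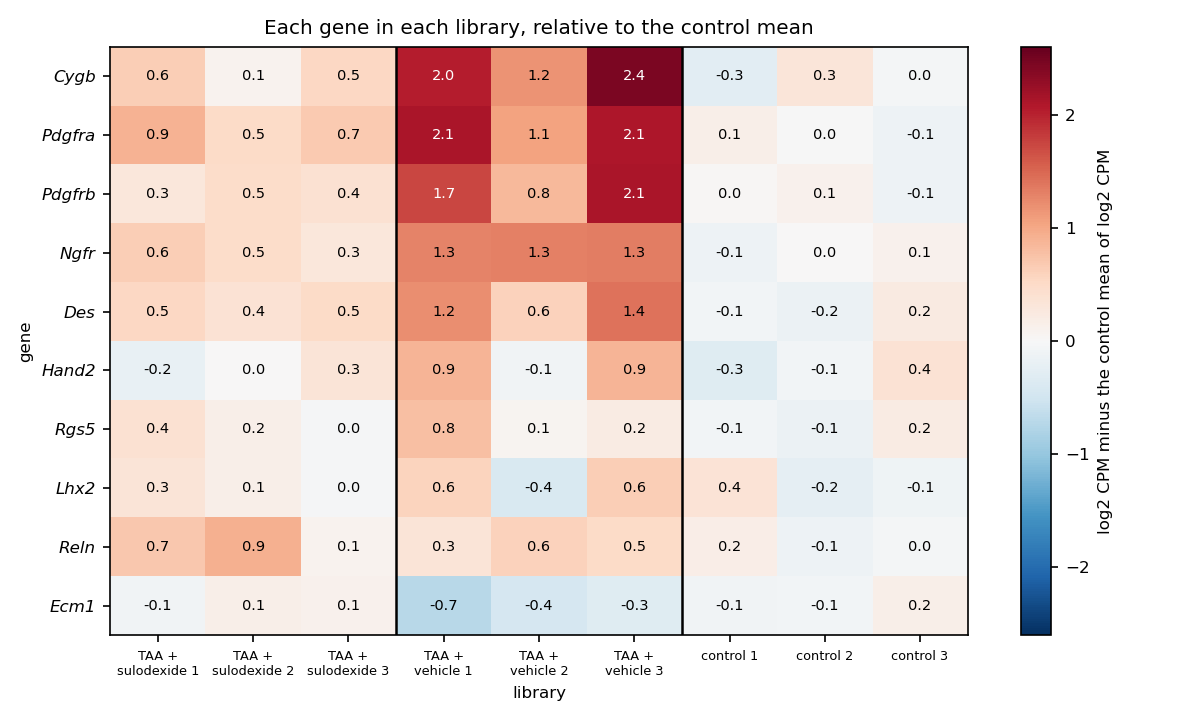
Log2 CPM of each of the 10 genes in each of the 9 libraries minus the mean of the control libraries, in red where higher and blue where lower. Cygb, Pdgfra, Pdgfrb and Des are lower in library 2 of TAA with vehicle than in libraries 1 and 3, Ngfr is even across the 3, and Ecm1 is below the control mean in all 3.

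The calls of the fall with sulodexide depended on single libraries. Cygb and Ngfr did not pass without library 2 or 3 of TAA with sulodexide or without library 1 or 3 of TAA with vehicle (edgeR adjusted p from 0.0611 to 0.0803 for Cygb and from 0.0611 to 0.0786 for Ngfr). Pdgfra did not pass in the same 4 fits, at adjusted p values from 0.0854 to 0.113, and Pdgfrb in these and without library 1 of TAA with sulodexide (0.0669 to 0.0802). The same 4 fits, which tested 13838 to 14057 genes, called 140 to 362 of them and did not call any of the 10. With every library 658 of 13701 genes were called. The log2 fold changes kept their sign in each fit, at -1.59 to -1.23 for Cygb, -1.30 to -0.96 for Pdgfrb and -0.84 to -0.74 for Ngfr. The 5 rises with TAA and vehicle relative to control passed in all 18 alternatives tried, and the smallest values of Pdgfra, 0.96 against control and -0.64 with sulodexide, came from the log2(FPKM + 1) scale.

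The level of the 10 genes was set in order per length, with FPKM, and the order rests on the lengths behind the deposited FPKM. Ecm1 was first in every group, at 25.5 ± 2.12 FPKM in TAA with sulodexide, 19.3 ± 1.94 FPKM in TAA with vehicle and 20.6 ± 1.29 FPKM in control (SD, n = 3), and Lhx2 was last in every group, at 0.333 FPKM with sulodexide, 0.417 FPKM with vehicle and 0.256 FPKM in control. Cygb was the third of the 10 in TAA with sulodexide at 4.69 ± 0.874 FPKM, the second in TAA with vehicle at 14.9 ± 5.73 FPKM, where its range overlapped that of Ecm1, and the fourth in control at 2.92 ± 0.541 FPKM. Rgs5 was next to Ecm1 in TAA with sulodexide at 6.23 ± 0.976 FPKM and in control at 4.60 ± 0.520 FPKM, and was the third in TAA with vehicle at 7.95 ± 2.52 FPKM. Below these many neighbours overlapped in range. Pdgfra was the ninth in each group, at 0.704 ± 0.105 FPKM with sulodexide, 1.70 ± 0.627 FPKM with vehicle and 0.365 ± 0.0584 FPKM in control. Its range lay wholly below that of Des with sulodexide and in control, and overlapped it with vehicle. It lay wholly above that of Lhx2 with sulodexide and with vehicle, and overlapped it in control. FPKM carries no TMM factor, and so Ecm1 differs less between vehicle and control on it than in CPM.

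The ligands of the PDGF receptors and the enzymes that process them were read in the same fit. Of 9 genes of this list, 5 rose and 0 fell with TAA and vehicle relative to control, 4 fell and 0 rose with sulodexide relative to vehicle, and 2 rose with sulodexide relative to control. Among all tested genes 43.4% changed with vehicle relative to control, 4.8% with sulodexide relative to vehicle and 22.6% with sulodexide relative to control, with median log2 fold changes of 0.01, 0.02 and 0.02, and the counts of this and the following lists stand beside these shares. The list's medians were 2.02 for vehicle against control, -1.62 for sulodexide against vehicle and 0.40 for sulodexide against control. Pdgfc, whose product needs proteolysis before it binds PDGFRα, had 5.15, 4.29 and 3.95 CPM in TAA with sulodexide, 17.7, 11.2 and 12.2 CPM in TAA with vehicle, and 4.07, 2.93 and 3.10 CPM in control. It rose 4.05-fold with vehicle relative to control (edgeR adjusted p = 7.98e-05) and fell with sulodexide relative to vehicle (log2 fold change -1.62, edgeR adjusted p = 0.00767), and both calls passed in all 18 alternatives. Pdgfc shares exon positions with Gm16000 on the opposite strand. Plat, tissue plasminogen activator, which cleaves PDGF-C, had 2.49, 0.928 and 1.45 CPM with sulodexide, 20.3, 7.55 and 18.3 CPM with vehicle and 0.291, 0.0861 and 0.327 CPM in control. Plat rose with vehicle by 5.96 on the log2 scale (SE 0.59, edgeR adjusted p = 4.14e-05) and fell with sulodexide relative to vehicle (log2 fold change -3.24, SE 0.44, edgeR adjusted p = 0.0082). St14, matriptase, an epithelial protease that can cleave PDGF-D, averaged 5.88 ± 2.65 CPM with sulodexide, 20.7 ± 5.65 CPM with vehicle and 0.969 ± 0.754 CPM in control (SD, n = 3). St14 rose with vehicle by 4.37 on the log2 scale (edgeR adjusted p = 0.000214) and fell with sulodexide (log2 fold change -1.81, edgeR adjusted p = 0.0466), a fall that did not pass in 6 of 18 alternatives, among them those without sulodexide library 2 or 3, vehicle library 1 or 3 or control library 3 (adjusted p from 0.0706 to 0.147). All 6 cholangiocyte markers also rose with vehicle and fell with sulodexide, with summed levels of 41.7 to 107 CPM with sulodexide, 204 to 497 CPM with vehicle and 32.7 to 46.7 CPM in control. Their part in the St14 values was not tested.

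The remaining ligand genes were named after their values were seen, because they encode the other ligands of the receptor pair. Pdgfd, a ligand of PDGFRβ, averaged 1.10 ± 0.737 CPM with sulodexide, 4.47 ± 1.54 CPM with vehicle and 1.06 ± 0.580 CPM in control (SD, n = 3). It rose with vehicle by 2.07 on the log2 scale (edgeR adjusted p = 0.00698) and fell with sulodexide (log2 fold change -2.01, edgeR adjusted p = 0.0418), a fall that did not pass in 7 of 18 alternatives, among them those without sulodexide library 2 or 3, vehicle library 1 or 3 or control library 1 or 2 (adjusted p from 0.0509 to 0.14). Pdgfb averaged 1.51 ± 0.177 CPM with sulodexide, 4.11 ± 2.08 CPM with vehicle and 0.935 ± 0.646 CPM in control, and rose with vehicle (log2 fold change 2.12, edgeR adjusted p = 0.00972). Its value with sulodexide relative to vehicle was -1.44 (edgeR adjusted p = 0.141), and without library 2 of TAA with vehicle, at 1.72 CPM the lowest of the 3, the adjusted p was 0.0365. Pdgfa, the ligand specific to PDGFRα, had 5.69 to 6.87 CPM with sulodexide, 4.95 to 6.02 CPM with vehicle and 4.51 to 5.08 CPM in control, with log2 fold changes of 0.23 for vehicle against control and 0.18 for sulodexide against vehicle that did not pass. With scaling by total counts Pdgfa passed for vehicle against control (edgeR adjusted p = 0.0165). Pdgfa shares exon positions with 6330403L08Rik on the opposite strand.

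**Figure D4:**
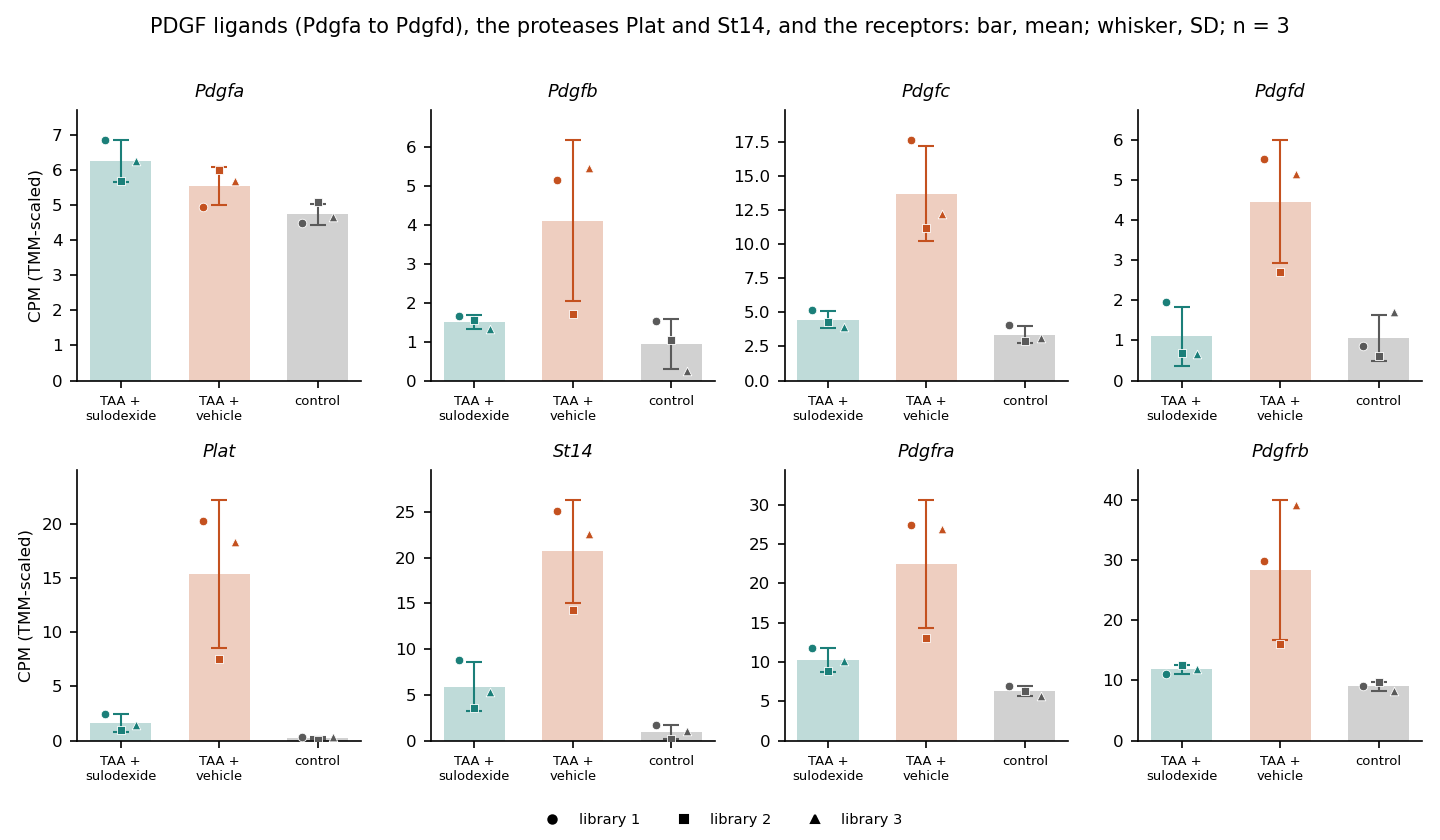
CPM of the 4 PDGF ligand genes, the protease genes Plat and St14 and the receptor genes in the 3 libraries of each group, with bars for the mean and whiskers for the SD (n = 3). Pdgfb, Pdgfc, Pdgfd, Plat, St14 and both receptors stand highest in TAA with vehicle, and Pdgfa lies between 4.51 and 6.87 CPM throughout.

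Downstream of the receptors, 5 of 17 signalling and feedback genes rose and 3 fell with TAA and vehicle relative to control, close to the 43.4% of all tested genes that changed there, with a median log2 fold change of -0.033 (0.01 over all tested genes). Dusp6, an ERK phosphatase that ERK signalling itself induces, averaged 103.1 CPM with sulodexide, 164.6 CPM with vehicle and 52.6 CPM in control. It rose with vehicle by 1.64 on the log2 scale (edgeR adjusted p = 1.25e-05) and was the only gene of this list that changed with sulodexide relative to vehicle, where it fell (log2 fold change -0.67, edgeR adjusted p = 0.0212), and relative to control it was higher with sulodexide by 0.97 (edgeR adjusted p = 0.000806). The fall did not pass without sulodexide library 2 (adjusted p = 0.0557) or 3 (0.0547) or vehicle library 3 (0.0706). Src, a cytoplasmic tyrosine kinase that binds the receptors, rose with vehicle by 2.42 (edgeR adjusted p = 0.00014). Plcg1, phospholipase C gamma 1, fell with vehicle (log2 fold change -0.90, edgeR adjusted p = 0.000127) and was as low with sulodexide, with a log2 fold change of -0.90 against control (edgeR adjusted p = 0.000323). Plcg1 shares exon positions with Zhx3 on the opposite strand. Pik3r1, a regulatory subunit of phosphoinositide 3-kinase, fell with vehicle (log2 fold change -0.90, edgeR adjusted p = 0.00296), and Slc9a3r1, a scaffold protein that binds the PDGF receptor, fell with sulodexide (-0.66, adjusted p = 0.00874) and with vehicle (-0.67, adjusted p = 0.00379) relative to control. With vehicle neither passed with scaling by total counts or on either log2 FPKM scale (adjusted p from 0.062 to 0.085 for Pik3r1 and from 0.0752 to 0.0857 for Slc9a3r1). These adaptors and kinases are made by most liver cells.

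Of 7 tested genes of 12 neurotrophin and neurotrophin receptor genes, 3 rose and 1 fell with TAA and vehicle, and 1 fell with sulodexide relative to vehicle, with median log2 fold changes of 0.54 and -0.59. Ntrk2, the receptor tyrosine kinase TrkB, had 1.84, 2.32 and 1.97 CPM with sulodexide, 31.1, 2.70 and 17.99 CPM with vehicle and 0.872, 0.689 and 0.163 CPM in control. Library 2 of TAA with vehicle lay close to the sulodexide libraries. Ntrk2 rose with vehicle by 4.87 on the log2 scale (SE 0.93, edgeR adjusted p = 0.00372), and its value with sulodexide relative to vehicle was -3.08 (SE 0.77, edgeR adjusted p = 0.0656), which passed without that library (0.000678). Ngfrap1, whose product binds p75, rose with vehicle by 2.75 (edgeR adjusted p = 0.000563). Sort1, sortilin, a partner of p75, rose with vehicle by 0.84 (edgeR adjusted p = 0.0164) and fell with sulodexide (log2 fold change -1.09, edgeR adjusted p = 0.0291). The rise of Sort1 missed the threshold without vehicle library 1 (adjusted p = 0.0606) or 3 (0.0615) or control library 2 (0.0714), and its fall did not pass in 7 of 18 alternatives, among them that with only the libraries of the 2 groups (0.0591) and those without any 1 of the sulodexide libraries or vehicle library 1 or 3 (0.0644 to 0.11). Sort1 shares exon positions with Gm12523 on the opposite strand. Bdnf, a ligand of TrkB and p75, averaged 0.327 CPM with vehicle and 1.43 CPM in control (log2 fold change -2.09, edgeR adjusted p = 0.0256), a fall that did not pass in 5 of 18 alternatives, among them those without vehicle library 1 (0.0834) or 2 (0.0739) or control library 2 (0.099). Bdnf shares exon positions with Gm45346 on the opposite strand.

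Reelin binds lipoprotein receptors. Of 7 tested genes of 8 reelin receptor and adaptor genes, 3 rose and 1 fell with TAA and vehicle, 1 fell with sulodexide relative to vehicle and 1 rose with sulodexide relative to control, with median log2 fold changes of 0.81, -0.16 and 0.28. Vldlr, the very low density lipoprotein receptor, averaged 3.33 CPM with sulodexide, 1.94 CPM with vehicle and 0.393 CPM in control. It rose with vehicle by 2.26 on the log2 scale (edgeR adjusted p = 0.00503) and with sulodexide relative to control by 3.04 (edgeR adjusted p = 0.00204), and its value with sulodexide relative to vehicle was 0.78 (edgeR adjusted p = 0.321). Itga3, the integrin alpha 3 chain, which can bind reelin, rose with vehicle by 1.28 (edgeR adjusted p = 0.000238) and fell with sulodexide (log2 fold change -0.82, edgeR adjusted p = 0.0233), a fall that did not pass in 5 of 18 alternatives, among them those without sulodexide library 2 or 3 or vehicle library 1 or 3 (adjusted p from 0.0633 to 0.0932). Fyn, a tyrosine kinase of the reelin pathway, rose with vehicle (log2 fold change 0.81, edgeR adjusted p = 0.0179), a rise that did not pass without vehicle library 1 or any 1 of the control libraries (adjusted p from 0.0517 to 0.0798). Crk, an adaptor of the same pathway, fell with vehicle (log2 fold change -0.76, edgeR adjusted p = 0.0485), a fall that did not pass in 14 of 18 alternatives, among them those without any 1 of the sulodexide or control libraries or vehicle library 3 (adjusted p from 0.053 to 0.117).

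Among the partners of desmin, 3 of 7 tested intermediate filament and linker genes rose and 1 fell with TAA and vehicle, and 2 fell with sulodexide relative to vehicle, with median log2 fold changes of 1.38 and -0.15. Vim, vimentin, the general filament of mesenchymal cells, averaged 31.5 CPM with sulodexide, 50.8 CPM with vehicle and 12.0 CPM in control, and rose with vehicle by 2.08 (edgeR adjusted p = 0.00252). Nes, nestin, rose with vehicle by 1.41 (edgeR adjusted p = 0.00138) and fell with sulodexide (log2 fold change -1.22, edgeR adjusted p = 0.0217). Cryab, the small heat shock protein that binds desmin, rose with vehicle by 2.17 (edgeR adjusted p = 0.000532) and fell with sulodexide (log2 fold change -1.55, edgeR adjusted p = 0.0218). Neither fall passed without sulodexide library 1, 2 or 3 or without vehicle library 3, and that of Cryab also not without vehicle library 1 (edgeR adjusted p from 0.0573 to 0.0878 for Nes and from 0.0545 to 0.0786 for Cryab). Cryab shares exon positions with Hspb2 on the opposite strand. Dmd, dystrophin, which links the cytoskeleton to the membrane, fell with vehicle (log2 fold change -0.70, edgeR adjusted p = 0.0265), a fall that did not pass in 8 of 18 alternatives, among them those without vehicle library 2 or 3 or any 1 of the control libraries (adjusted p from 0.0523 to 0.0821).

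Other mesenchymal transcription factor genes were read beside Hand2 and Lhx2, and 4 of 18 tested genes rose and 3 fell with TAA and vehicle, with a median log2 fold change of 0.11. Tcf21, a basic helix-loop-helix factor of mesenchymal cells, had 4.62, 2.73 and 6.32 CPM with sulodexide, 13.4, 8.17 and 16.5 CPM with vehicle and 3.49, 5.68 and 4.25 CPM in control. The vehicle libraries lay above all others. Tcf21 rose with vehicle by 1.51 on the log2 scale (edgeR adjusted p = 0.00451) and fell with sulodexide (log2 fold change -1.48, edgeR adjusted p = 0.0305), and the fall did not pass without sulodexide library 1 (adjusted p = 0.0797) or 2 (0.0946) or vehicle library 1 (0.0961) or 3 (0.111). Gata6, a GATA factor, rose with vehicle by 0.76 (edgeR adjusted p = 0.00732) and shares exon positions with 1010001N08Rik on the opposite strand. The 3 that fell with vehicle were Ldb1, a cofactor of LIM domain factors (log2 fold change -0.43, edgeR adjusted p = 0.0255), Nr2f2, a nuclear receptor (-0.49, adjusted p = 0.0335), and Zeb1, a zinc finger repressor (-0.53, adjusted p = 0.0436). They did not pass in 5, 7 and 11 of 18 alternatives. Among these were the fits without vehicle library 2 or control library 3 for Ldb1 (adjusted p from 0.083 to 0.0869), without library 1 or 2 of vehicle or of control for Nr2f2 (0.0694 to 0.0994), and without sulodexide library 2, any 1 of the vehicle libraries or control library 1 or 2 for Zeb1 (0.0518 to 0.16). Each of these 3 shares exon positions with a gene on the opposite strand. Wt1, a factor of mesothelial cells and of some stellate cells, had 33 counts over the libraries with sulodexide, 71 with vehicle and 0 in control, where the floor was taken as 3 counts over the group. From these pooled counts it was at least 8.39-fold higher with sulodexide and at least 17.1-fold higher with vehicle than in control. Wt1 averaged 0.667 ± 0.198 CPM with sulodexide and 1.35 ± 1.09 CPM with vehicle (SD, n = 3), so the vehicle libraries were widely spread. The rise with sulodexide relative to control did not pass on log2(FPKM + 0.1) (limma adjusted p = 0.0824) or log2(FPKM + 1) (limma adjusted p = 0.284).

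Of 9 other tested genes of the RGS family, 3 rose and 1 fell with TAA and vehicle relative to control and 2 fell with sulodexide relative to control, with median log2 fold changes of 0.76 and 0.52. Rgs2 rose with vehicle by 1.62 on the log2 scale (edgeR adjusted p = 0.00288) and Rgs3 fell (log2 fold change -1.09, edgeR adjusted p = 0.00156). Rgs10 rose with vehicle by 1.71 (edgeR adjusted p = 0.0118) but not without control library 1 (adjusted p = 0.0536). With sulodexide relative to vehicle the log2 fold change was -0.74 for Rgs2 (edgeR adjusted p = 0.215) and 0.37 for Rgs3 (edgeR adjusted p = 0.341).

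Of 21 genes described in quiescent stellate cells, 6 rose and 5 fell with TAA and vehicle relative to control, and 1 rose and 2 fell with sulodexide relative to vehicle, with median log2 fold changes of 0.065 and 0.076. Adamtsl2, a secreted protein of the TGF-beta matrix network, averaged 14.6 ± 4.21 CPM with sulodexide, 51.1 ± 16.8 CPM with vehicle and 8.48 ± 1.09 CPM in control (SD, n = 3). It rose with vehicle by 2.59 (edgeR adjusted p = 7.33e-05) and fell with sulodexide (log2 fold change -1.81, edgeR adjusted p = 0.0087), and both calls passed in all 18 alternatives. Cxcl12, a chemokine that endothelial cells make as well, had 107.0 to 143.5 CPM with sulodexide, 106.6 to 133.8 CPM with vehicle and 281.0 to 337.3 CPM in control. Relative to control it fell by 1.23 with sulodexide (edgeR adjusted p = 0.000267) and fell by 1.31 with vehicle (edgeR adjusted p = 6.93e-05), and the TAA groups overlapped. Colec10, a collectin, fell with vehicle (log2 fold change -0.91, edgeR adjusted p = 0.00273) and rose with sulodexide relative to vehicle by 0.82 (edgeR adjusted p = 0.0328), a rise that did not pass in 8 of 18 alternatives, among them those without sulodexide library 2 or 3, vehicle library 1 or 3 or control library 1 (adjusted p from 0.0526 to 0.13). The other falls with vehicle were those of Vipr1, a receptor of vasoactive intestinal peptide (log2 fold change -0.42, edgeR adjusted p = 0.0373), Steap4, a metalloreductase (-1.03, adjusted p = 0.0381), and Bmp5, a bone morphogenetic protein (-0.53, adjusted p = 0.0488). They did not pass in 8, 11 and 16 of 18 alternatives. Among these were the fits without vehicle library 1 or 3 or any 1 of the control libraries for Vipr1 (adjusted p from 0.0511 to 0.136), without sulodexide library 1, vehicle library 2 or 3 or any 1 of the control libraries for Steap4 (0.058 to 0.111), and without sulodexide library 1 or 2, any 1 of the vehicle libraries or control library 1 or 3 for Bmp5 (0.0525 to 0.187). Bmp5 shares exon positions with Gm26903 on the opposite strand.

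Since the Ecm1 protein acts on latent TGF-beta, 11 genes of TGF-beta and its activation were read beside it. With TAA and vehicle 8 rose and 0 fell relative to control, and with sulodexide 7 fell and 0 rose relative to vehicle, with median log2 fold changes of 2.08 and -1.96. Tgfb3 had 2.49, 1.91 and 2.24 CPM with sulodexide, 14.8, 9.21 and 17.2 CPM with vehicle and 1.02, 1.12 and 1.06 CPM in control. Tgfb3 rose with vehicle by 3.68 on the log2 scale (SE 0.28, edgeR adjusted p = 6.79e-06) and fell with sulodexide (log2 fold change -2.63, SE 0.25, edgeR adjusted p = 0.00302), in all 18 alternatives. Thbs1, thrombospondin 1, which activates latent TGF-beta, rose with vehicle by 3.67 (edgeR adjusted p = 9.91e-05) and fell with sulodexide (log2 fold change -2.18, edgeR adjusted p = 0.0127), a fall that did not pass without library 2 of TAA with sulodexide (adjusted p = 0.0577). Tgfb2 rose with vehicle by 3.06 (edgeR adjusted p = 0.000208) and fell with sulodexide (log2 fold change -2.03, edgeR adjusted p = 0.0143), a fall that missed the threshold without vehicle library 3 (adjusted p = 0.066). Each of these 3 genes shares exon positions with a gene on the opposite strand.

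Over the 9 lists together, 40 genes rose and 15 fell with TAA and vehicle, 1 rose and 19 fell with sulodexide relative to vehicle, and 14 rose and 6 fell with sulodexide relative to control. The number of tested genes in each list is given above. Among all tested genes 43.4%, 4.8% and 22.6% changed in these comparisons. The lists were chosen with earlier results of these data known, and their counts were not tested against these shares. The 20 changes with sulodexide relative to vehicle became 6 without sulodexide library 2 or without vehicle library 3, 11 without vehicle library 1 and 13 without sulodexide library 3. The 20 changes relative to control became 12 without control library 1 and 13 without control library 3.

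Markers of other cell types, some of which share these genes, were read as well, and part of them changed. The summed level of 8 myofibroblast markers was 86.2 to 114.6 CPM with sulodexide, 298.4 to 522.9 CPM with vehicle and 37.6 to 48.3 CPM in control. Of these, 7 were higher with vehicle than in control and 4 lower with sulodexide than with vehicle. Most of the sum with vehicle came from Col1a1, Col1a2 and Col3a1, at means of 102, 99.4 and 174 CPM. Acta2, Tagln, Timp1 and Postn did not pass with sulodexide relative to vehicle, and Postn averaged 11.7 CPM with sulodexide and 10.4 CPM with vehicle. That of 12 portal fibroblast markers was 32.7 to 44.1 CPM with sulodexide, 80.7 to 153.6 CPM with vehicle and 21.4 to 23.4 CPM in control, with 10 markers higher with vehicle and 4 lower with sulodexide. The 12 pericyte and vascular smooth muscle markers summed to 58.0 to 60.7 CPM with sulodexide, 59.7 to 88.6 CPM with vehicle and 44.5 to 53.1 CPM in control. Of these, 4 rose with vehicle, among them Acta2 and Tagln, which are also myofibroblast markers, and 0 fell with sulodexide relative to vehicle. Higd1b had 0 counts in all 9 libraries and Pln at most 2 in a group. The 7 Schwann and glial markers, beside Ngfr, summed to 2.15 to 5.57 CPM with sulodexide, 7.25 to 12.6 CPM with vehicle and 1.98 to 2.62 CPM in control. Mbp and Ncam1 changed there, and Sox10, which defines Schwann cells, had 2 counts with sulodexide, 1 with vehicle and 0 in control. The 6 mesothelial markers summed to 3.42 to 5.09 CPM with sulodexide, 9.34 to 25.0 CPM with vehicle and 2.45 to 4.22 CPM in control. Of the 2 that rose, Krt19 is also among the cholangiocyte markers, and it averaged 13.8 CPM of the mean sum of 17.6 CPM with vehicle. The 6 skeletal muscle markers, beside Des, summed to at most 1.41 CPM in any library. The 8 sinusoidal endothelial markers summed to 301 to 423 CPM with sulodexide, 247 to 321 CPM with vehicle and 321 to 395 CPM in control, and the 6 Kupffer cell markers to 215 to 488 CPM with sulodexide, 217 to 346 CPM with vehicle and 150 to 174 CPM in control. Of the endothelial markers 2 fell with vehicle relative to control, Fcgr2b and Kdr. Relative to control 2 Kupffer cell markers rose with vehicle and 5 with sulodexide. In both lists 0 changed with sulodexide relative to vehicle. The part of these cells in the levels of the 10 genes was not tested.

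Genes whose profile over the 9 libraries came nearest to each of the 10 were found among 12563 genes, by the root mean square difference of log2 CPM after centring on the control mean. Efemp2, a matrix protein that assembles elastic fibres, came nearest to Pdgfra at 0.116, and averaged 4.45 ± 0.291 CPM with sulodexide, 10.5 ± 3.54 CPM with vehicle and 2.95 ± 0.0542 CPM in control (SD, n = 3). Timp2, an inhibitor of matrix metalloproteinases, came nearest to both Pdgfrb, at 0.185, and Cygb, at 0.203, and averaged 19.0 ± 2.77 CPM with sulodexide, 51.8 ± 20.3 CPM with vehicle and 14.3 ± 2.11 CPM in control. Sparc, a matrix glycoprotein, was next for Cygb at 0.205. Slc7a7 came nearest to Des at 0.110, Tpm4, a tropomyosin, to Ngfr at 0.148 with Itga3 next at 0.159, and Fbxo42 to Reln at 0.104. C4bp, a complement regulator made by hepatocytes, came nearest to Ecm1 at 0.0959, and averaged 693 ± 90.1 CPM with sulodexide, 504 ± 37.6 CPM with vehicle and 710 ± 35.4 CPM in control. Tmem237 came nearest to Rgs5, Syce2 to Hand2 and Dusp7 to Lhx2. Efemp2, Slc7a7, Tpm4 and Tmem237 share exon positions with a gene on the opposite strand. Within the 10 genes, Des and Ngfr were the nearest pair at 0.259, and the PDGF receptor pair was next at 0.271. The likeness is a description over 9 libraries that fall into 3 groups.

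The scaling of the libraries set where 0 lies. With scaling by total counts in place of TMM, the median log2 fold change of all tested genes was 0.41 for vehicle against control, -0.12 for sulodexide against vehicle and 0.27 for sulodexide against control, where it was 0.01, 0.02 and 0.02 with TMM. The share of rises among the changed genes then was 83.3% in place of 53.1%, 11.6% in place of 29.0% and 81.4% in place of 49.6%. Reln (log2 fold change 0.87, edgeR adjusted p = 0.00461), Rgs5 (0.79, adjusted p = 0.00926) and Hand2 (1.01, adjusted p = 0.00929) then passed as higher with vehicle than in control, against that median of 0.41. Pdgfra, Pdgfrb, Ngfr, Des and Cygb rose under either scaling, and Ecm1 stood below the median of all genes in vehicle against control under either.

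**Figure D5:**
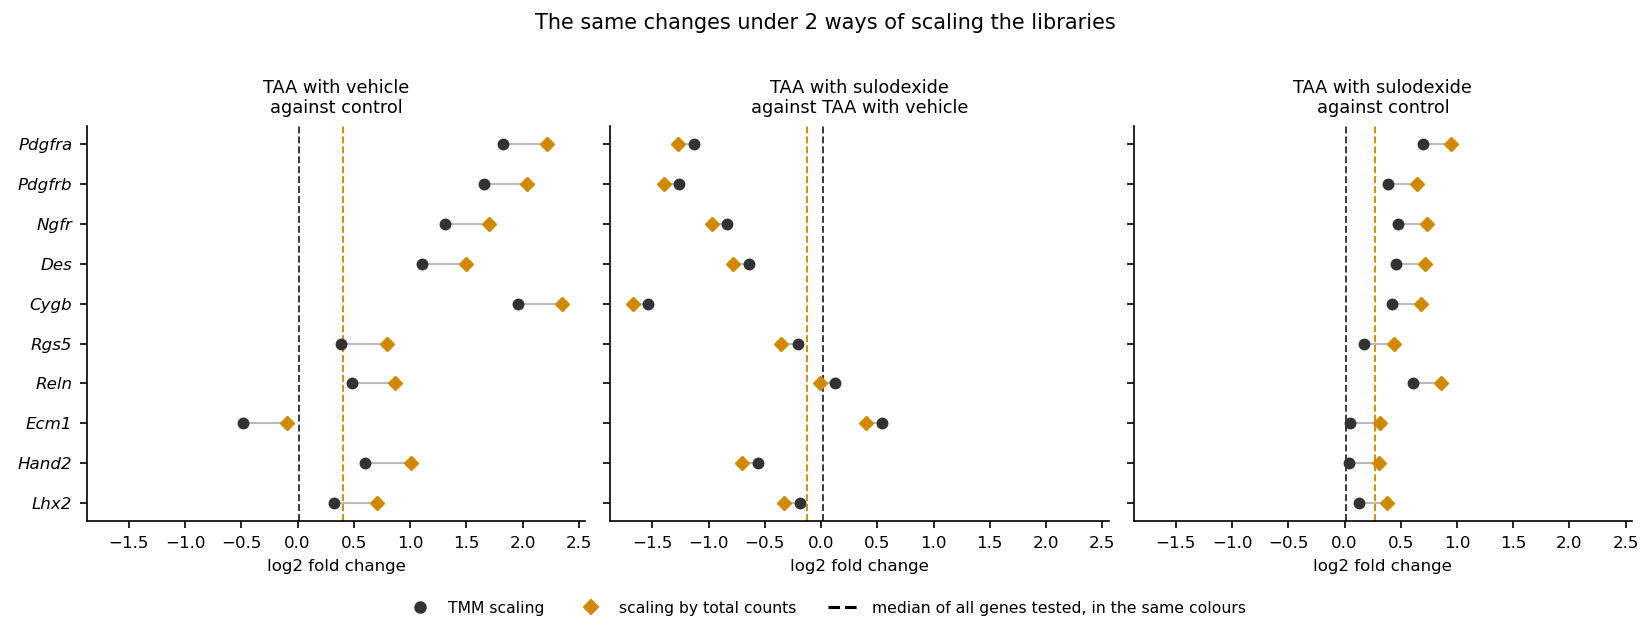
Log2 fold change of each of the 10 genes with TMM scaling (circles) and with scaling by total counts (diamonds) in the 3 comparisons, with dashed lines at the median of all tested genes under each scaling. In TAA with vehicle against control all 10 genes shift right together with the median, which is 0.01 with TMM and 0.41 with total counts, and Ecm1 stays left of it.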

How the data were processed

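RNA of mouse liver was sequenced in 9 libraries, 3 in each of 3 groups. Raw counts and FPKM per gene are the authors' deposited values. FPKM lay within 0.0835% of the count divided by library total and a single length per gene, over 150383 values. That length was the median implied by the same counts and FPKM, so the check shows a constant divisor per gene and not that it is the transcript length. HISAT2 2.0.4 and StringTie 1.3.0 and the mouse build GRCm38 are named, per the submitters' processing notes, and no label or header names the counting program or its strand setting. Counts were tested with edgeR 4.0.16 (R 4.3.3; TMM, filterByExpr with a minimum count of 10, robust quasi-likelihood F-test, all 9 libraries in 1 fit, Benjamini-Hochberg over 13701 genes, threshold 0.05). The 95% intervals and SEs come from that fit. DESeq2 1.42.0, limma 3.58.1 on log2(FPKM + 0.1) and log2(FPKM + 1), other scalings and filters, a fit of 2 groups only, a replicate block and leaving out each library were alternatives. The fit was tested on simulated data with 200 changed genes. Over the 3 comparisons it recovered 8% to 10% of the 1.5-fold changes, 48% to 60% of the 2-fold changes and 82% to 90% of the 4-fold changes. In the data 5953 genes were called with vehicle against control, 658 with sulodexide against vehicle and 3101 with sulodexide against control. These are more than the 200 changed in the simulation, so its rates need not hold for the data. A gene that did not pass can still have changed by a small fold.

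Genes of the lists were named by smallest p, plus changed genes that went against their list's majority, and others are said to be chosen after their values were seen. Not every gene that this rule names is reported here. The 10 genes and the lists were chosen with earlier results of these data known. Replicate numbers were shared across groups by the labels. Promoter sequences are RefSeq's on GRCm38.p6, matched by symbol.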

Additional observations from a re-analysis of the deposited data

How the results depend on the processing

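The number of genes changed with sulodexide relative to vehicle was 658, and 1087 with DESeq2, 386 with only the libraries of the 2 groups, and 140 to 859 when each library was left out. Relative to control 3101 changed with sulodexide, and 2033 to 3191 when each library was left out. Of the 10 genes, 5 changed with sulodexide relative to vehicle, 2 with only the libraries of the 2 groups and 0 to 5 with a library left out, where Pdgfra (adjusted p = 0.0711), Pdgfrb (0.0571) and Ecm1 (0.0916) missed the threshold in the fit of 2 groups. Relative to control 1 changed with sulodexide, 4 with scaling by total counts, 3 on log2(FPKM + 0.1), 2 on log2(FPKM + 1) and 0 to 2 with a library left out. Pdgfra and Ngfr each passed as higher with sulodexide than in control in 3 of 18 alternatives, and Des in 2. The list genes changed with sulodexide numbered 6 to 29 relative to vehicle and 12 to 24 relative to control with a library left out, against 20 in each.

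Values near 0 changed sign. For sulodexide against vehicle, Reln was -0.00887 with total counts, -0.0469 on log2(FPKM + 0.1), -0.0272 on log2(FPKM + 1) and, with a library left out, -0.0573 to 0.335, Rgs5 was -0.338 to 0.0422, and the log2 Pdgfra to Pdgfrb ratio was -0.0496 to 0.251. For sulodexide against control, with a library left out, Hand2 was -0.123 to 0.241, Ecm1 -0.00923 to 0.119 and Pdgfd -0.646 to 0.555. Hand2 was below 0 without sulodexide library 3 or control library 1 or 2, Ecm1 without control library 1, Pdgfd without sulodexide library 1 or control library 1 or 2, Reln without sulodexide library 2, and the ratio without sulodexide library 1 or vehicle library 3, and Rgs5 was above 0 without vehicle library 1. The cause was not tested. Over 540 alternatives of 30 results on the 10 genes, 464 kept direction and side of the threshold, 44 lost and 23 gained a call, and 9 changed sign. The alternatives for the list genes were chosen after seeing the data.

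Libraries with the same replicate number correlated at -0.07 to 0.142 in their deviations from the group means, and were treated as sharing only a number. With the replicate block 5766 genes changed in vehicle against control, 649 in sulodexide against vehicle and 2984 in sulodexide against control, and 0 of the 10 genes changed in sulodexide against control, with Reln at an adjusted p of 0.0514. Of the list genes, the fall of Sort1 with sulodexide relative to vehicle (0.0516) and those of Bdnf (0.0512), Steap4 (0.0517) and Bmp5 (0.0667) with vehicle relative to control also missed the threshold there. At 19 to 54 counts a library, the interval of Lhx2 is the widest of the 10 in each comparison.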
